A study of Rattus norvegicus with 12 samples.

Results

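The miR-23/27/24 family is encoded in the rat genome as 2 paralogous clusters, and its members were examined here in the miRNA of extracellular vesicles (EVs). The a cluster holds the genes of miR-23a, miR-27a and miR-24-2, and the b cluster those of miR-23b, miR-27b and miR-24-1. Members were all array probes named for miR-23a, miR-23b, miR-27a or miR-27b (any arm), or for miR-24, which gave 11 of the 727 miRNAs on the array. Each array, a 3D-Gene miRNA Oligo Chip, held Cy3-labelled miRNA of 1 EV sample.

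The 12 arrays formed 4 groups of 3, from EVs of Thy1-MCs, bone marrow mesenchymal cells (MSCs), small hepatocytes (SHs) and mature hepatocytes (MHs). Thy1-MCs are Thy1+ mesenchymal cells of the liver, labelled as liver stem cells. By the methods, donors were male F344/Nslc rats, and Thy1+ cells were sorted after d-galactosamine had injured the liver, whereas uninjured livers gave the SHs and MHs. SHs are hepatocytic progenitor cells, labelled as liver progenitor cells, and MHs are the parenchymal cells. All cells were kept in serum-free DMEM for 2 days before EVs were collected. The labels give plastic as the surface for Thy1 and MSC cultures (the methods give collagen for Thy1+ cells), hyaluronic acid for SHs and type I collagen for MHs. Cell kind, culture surface and, for Thy1-MC-EVs, the injury cannot be told apart. Whether the replicates of a group were separate cultures or animals is not stated, so p-values measure the spread between these arrays, which may be technical.

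Each miRNA hairpin yields a 3p and a 5p arm. In this family the 3p arm is the guide strand that is usually loaded onto Argonaute, and the 5p arm is mostly the passenger. The seed, bases 2 to 8, largely determines which transcripts a miRNA represses. In mammalian cells miR-23 and miR-27 are known for roles in vessel sprouting, miR-27 also for restraining genes of lipid metabolism and adipocyte formation, and miR-24 for effects on the cell cycle and on endothelial survival. In mouse fetal liver cells, the b cluster was linked to repression of TGF-beta signalling.

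The mature sequences follow because the paralogs are so alike. They are from RefSeq (GRCr8), which held a mature entry for 10 of the 11 members, and the capitals mark the seed.
miR-23a-3p: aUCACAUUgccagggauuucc
miR-23b-3p: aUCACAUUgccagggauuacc
miR-27a-3p: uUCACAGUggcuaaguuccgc
miR-27b-3p: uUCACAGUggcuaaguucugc
miR-24-3p: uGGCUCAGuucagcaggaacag
miR-24-1-5p: gUGCCUACugagcugauaucag
miR-24-2-5p: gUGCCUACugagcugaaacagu
Counted from the 5′ end, miR-23a-3p and miR-23b-3p differed by U19A (a cluster base first), and miR-27a-3p and miR-27b-3p by C19U. Both differences lie outside the seed, so each guide pair has 1 seed. The 2 miR-24 genes give the same miR-24-3p, so its probe cannot assign signal to a cluster, whereas the miR-24 5p arms share their first 16 bases and then part. No other array probe with a RefSeq sequence (653 of 727 miRNAs had one) shared a member's seed. How far a probe also binds its paralog was not tested.

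On GRCr8 the b cluster lies on chr17:1818669-1819482, a span of 814 bp inside the Aopep gene, and the a cluster on chr19:40859455-40859843, a span of 389 bp. All 6 hairpins are on the minus strand. The miR-27 hairpins are shown because only the miR-27 guides passed the test of paralogous pairs below. The 3p arm is in capitals.
Mir27a: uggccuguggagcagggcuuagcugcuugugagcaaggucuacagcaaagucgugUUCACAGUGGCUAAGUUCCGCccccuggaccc
Mir27b: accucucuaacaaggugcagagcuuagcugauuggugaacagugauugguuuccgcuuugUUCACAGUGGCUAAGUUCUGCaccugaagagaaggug

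The MH arrays stood apart from the others in technical measures. Their spike-in control signal was 5139 to 7915 against 28678 to 32905 on the other 9 arrays, their background 59.8 to 77.9 against 96.8 to 136, and 425 to 528 miRNAs were detected on them against 174 to 359. Of 5 listed hepatocyte markers 4 were on the array, and miR-122-5p, miR-192-5p, miR-194-5p and miR-101b-3p were detected on all 3 MH arrays, where their summed normalized intensity was 12715 to 31327, against at most 787 on the other arrays. Of the mesenchymal markers, all 5 were detected on every Thy1-MC and MSC array, and also on every MH array. Of 3 erythroid markers, miR-451-5p and miR-144-3p were detected on every Thy1-MC and MSC array (summed intensity 417 to 766), and miR-144-5p on no array of any source. None was detected in SH-EVs, and the sum reached at most 2.9 in MH-EVs. Leukocyte markers summed to at most 192 and epithelial markers to at most 32.7 on any array. The part of other cells in the results below was not tested.

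Levels are given as log2 normalized intensity, after background correction and quantile normalization, and are compared only within a probe. The 5 guide members were detected on all 12 arrays. Under quantile normalization the guides of the miR-23 pair had their highest mean in SH-EVs and their lowest in MH-EVs. rno-miR-23a-3p measured 12.40, 12.56 and 12.56 in Thy1-MC-EVs, 12.56, 13.98 and 12.99 in MSC-EVs, 13.23, 13.77 and 13.98 in SH-EVs and 10.41, 10.41 and 11.89 in MH-EVs. All 9 arrays of the other sources lay above the 3 MH arrays, and MH replicate 3 stood above the other two. rno-miR-23b-3p measured 12.56, 12.84 and 12.84 in Thy1-MC-EVs, 12.40, 13.77 and 12.84 in MSC-EVs, 13.45, 14.29 and 13.77 in SH-EVs and 10.34, 10.45 and 12.07 in MH-EVs. Again no array of another source reached down to the MH range, and MH replicate 3 was the high one.

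Under quantile normalization the order of mean levels for miR-23a-3p was SH, MSC, Thy1-MC and MH. Neighbours in that order did not pass the test for MSC against SH (log2 difference -0.48, 95% interval -1.42 to 0.46) or for Thy1-MC against MSC (-0.67, -1.61 to 0.27). The step to MH-EVs passed it. Thy1-MC-EVs instead lay above MSC-EVs with median scaling (0.12), after spike-in scaling (0.82) and on the authors' normalized intensity (0.58). After spike-in scaling and on the authors' values MSC-EVs were the lowest source, at -1.71 and -0.28 against MH-EVs. Set against MH-EVs, Thy1-MC-EVs held more miR-23a-3p by 1.60 ± 0.43 (SE, n = 3 each; limma adjusted p = 0.0151), although the difference was -0.89 after spike-in scaling. On the authors' normalized intensity it was 0.30 (adjusted p = 0.65), and cyclic loess gave an adjusted p of 0.0723. Without MH replicate 2 the adjusted p was 0.0612, and without Thy1-MC replicate 3 it was 0.0501. The same step for miR-23b-3p was 1.79 ± 0.46 (limma adjusted p = 0.0129), against -0.86 after spike-in scaling, and lost its call without MH replicate 2 (adjusted p = 0.0549), with cyclic loess (adjusted p = 0.0765) and on the authors' normalized intensity (0.33, adjusted p = 0.631). Between Thy1-MC-EVs and SH-EVs the difference was -1.15 ± 0.43 for miR-23a-3p (limma adjusted p = 0.102) and -1.09 ± 0.46 for miR-23b-3p (adjusted p = 0.146). Neither passed the test, but both did so in fits without MH replicate 3 (adjusted p = 0.0257 and 0.0347) or without all MH arrays (adjusted p = 0.0445 and 0.0482). Both differences were smaller with median scaling (-0.48 and -0.52), after spike-in scaling (-0.60 and -0.64) and on the authors' normalized intensity (-0.56 and -0.61). Under those 3 scalings the limma adjusted p was 0.741 to 0.905.

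miR-24-3p, the guide made by both clusters, was also lowest in MH-EVs under quantile normalization. On the arrays rno-miR-24-3p measured 11.17, 11.53 and 11.53 in Thy1-MC-EVs, 11.64, 12.99 and 12.56 in MSC-EVs, 12.07, 12.99 and 12.84 in SH-EVs and 9.98, 9.98 and 10.53 in MH-EVs. The Thy1-MC range lay below both the MSC and the SH range and above the MH range. miR-24-3p fell in Thy1-MC-EVs relative to SH-EVs by 1.22 on the log2 scale, 2.33-fold lower, with a limma adjusted p of 0.0339. That call was lost in 6 of the 12 fits that left out an array, with an adjusted p of up to 0.129 (without Thy1-MC replicate 1), and the difference ranged over -1.22 to -0.85 across 6 ways of scaling, with the call held under quantile normalization and under none of the other 5. Against MSC-EVs the Thy1-MC difference was -0.99 ± 0.34 (limma adjusted p = 0.0579), and it passed the test without MSC replicate 1 (-1.36, adjusted p = 0.00979), SH replicate 1 (adjusted p = 0.0413) or MH replicate 3 (adjusted p = 0.0484). Its sign depended on scaling. The difference was -0.34 with median scaling (limma adjusted p = 0.539), 0.36 after spike-in scaling (adjusted p = 0.768) and 0.12 on the authors' normalized intensity (adjusted p = 0.925). Thy1-MC-EVs exceeded MH-EVs by 1.25 ± 0.34 (limma adjusted p = 0.0165; -1.47 after spike-in scaling and -0.29 on the authors' normalized intensity). That call ended without Thy1-MC replicates 2 or 3 or MH replicates 1 or 2 (adjusted p up to 0.0587) and with cyclic loess (adjusted p = 0.0525).

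The miR-27 guides had another order under quantile normalization, with MSC-EVs on top. After spike-in scaling and on the authors' normalized intensity MH-EVs were on top, with MSC-EVs against MH-EVs at -1.83 and -0.42 for miR-27a-3p. For miR-27b-3p MSC-EVs were then the lowest source, at -0.67 and -0.48 against SH-EVs. rno-miR-27a-3p measured 9.68, 9.72 and 8.79 in Thy1-MC-EVs, 10.41, 11.04 and 10.64 in MSC-EVs, 9.88, 9.47 and 9.77 in SH-EVs and 8.41, 8.66 and 8.84 in MH-EVs. Every MSC array was above every other array, and Thy1-MC replicate 3 was low, within the MH range. miR-27a-3p fell in Thy1-MC-EVs relative to MSC-EVs by 1.30 on the log2 scale (2.46-fold; limma adjusted p = 0.00454), with the same sign under each scaling tried, though the adjusted p was 0.626 after spike-in scaling and 0.376 on the authors' normalized intensity. It rose in MSC-EVs relative to SH-EVs by 0.99 ± 0.26 (limma adjusted p = 0.0136), a call lost without SH replicate 2 (0.85, adjusted p = 0.0676) and under 4 other scalings, where the adjusted p was 0.0528 to 0.828. Thy1-MC-EVs and SH-EVs differed by -0.31 (95% interval -0.87 to 0.26), which did not pass the test.

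miR-27b-3p varied least among the guides under quantile normalization, and it had the largest difference of any guide, in MSC-EVs against MH-EVs, after spike-in scaling and on the authors' normalized intensity. On the arrays rno-miR-27b-3p measured 9.81, 9.88 and 9.32 in Thy1-MC-EVs, 9.47, 10.34 and 10.11 in MSC-EVs, 9.42, 9.81 and 9.98 in SH-EVs and 8.79, 8.99 and 9.32 in MH-EVs. The ranges of the first 3 sources overlapped. Thy1-MC-EVs and SH-EVs differed by -0.07 (95% interval -0.62 to 0.48), and MSC-EVs and SH-EVs by 0.23 (-0.32 to 0.79). It passed the test only for MSC-EVs against MH-EVs (0.94 ± 0.25, limma adjusted p = 0.0134), a difference that was -3.16 after spike-in scaling and -1.90 on the authors' normalized intensity. That call was lost without MH replicate 1 (0.82, adjusted p = 0.0545). The difference between SH-EVs and MH-EVs, 0.70 with an adjusted p of 0.0522, passed without any of 5 arrays (adjusted p 0.0264 to 0.0459), and that between Thy1-MC-EVs and MH-EVs, 0.64, without MSC replicate 1 (adjusted p = 0.0423).

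**Figure D1:**
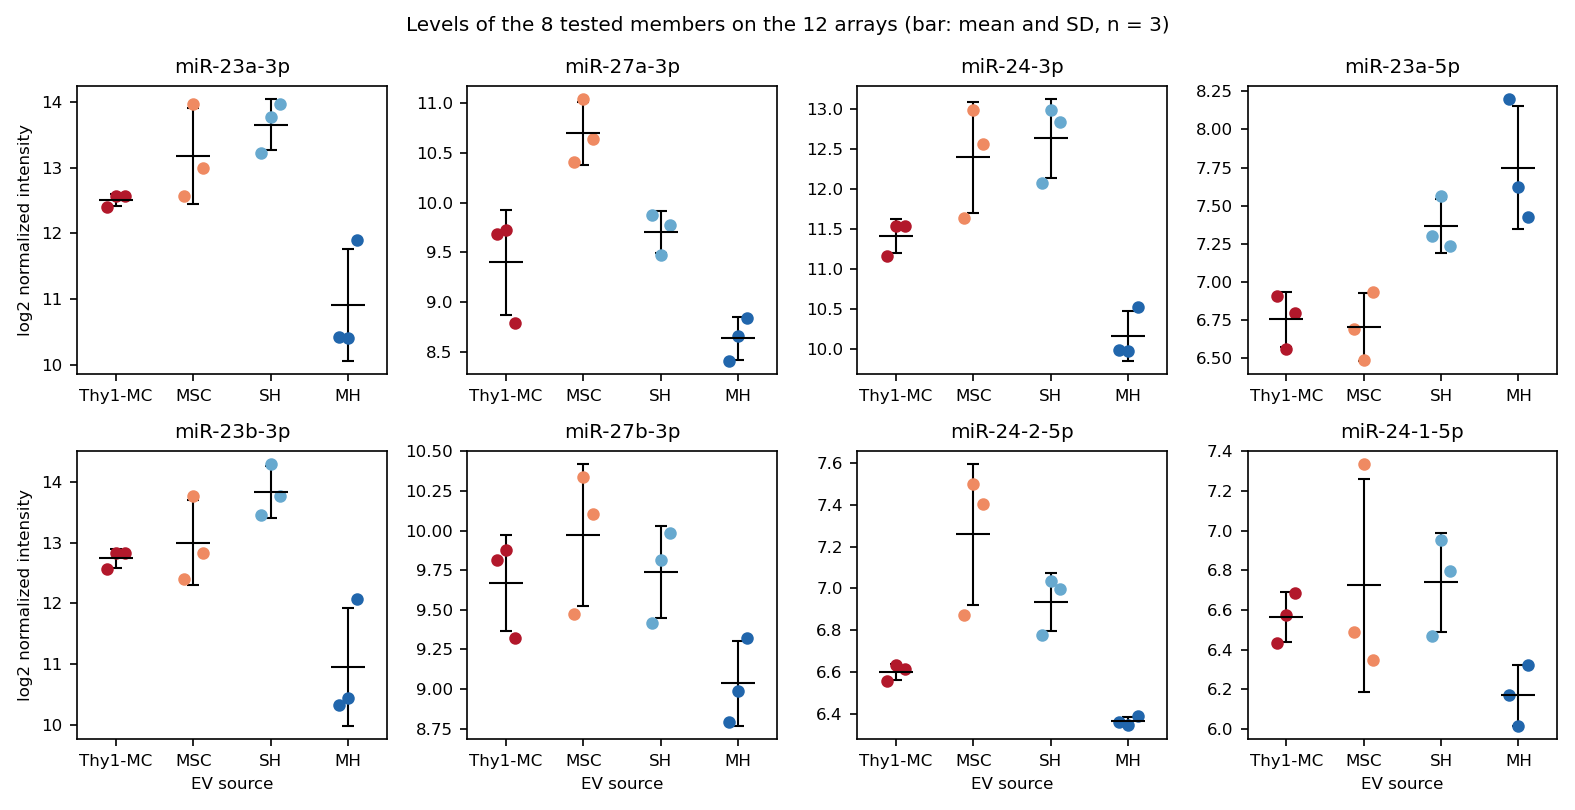
Log2 normalized intensity (vertical axis) of the 8 tested members on each array, by EV source; points are arrays, and the line and bars are mean and SD of 3 arrays. On this quantile-normalized scale the miR-23 guides and miR-24-3p lie lowest on the MH arrays and miR-27a-3p highest on the MSC arrays, while miR-23a-5p has its highest mean on the MH arrays; the order of MH against the rest turns for guides under spike-in scaling.

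The passenger arms were dim. miR-23a-5p was detected on 11 of the 12 arrays and measured 6.91, 6.56 and 6.79 in Thy1-MC-EVs, 6.69, 6.49 and 6.93 in MSC-EVs, 7.30, 7.56 and 7.23 in SH-EVs and 8.20, 7.62 and 7.42 in MH-EVs. Its MH range overlapped the SH range and lay above the other sources, whereas the guide of its own hairpin was lowest on the MH arrays on this quantile-normalized scale. miR-23a-5p fell in Thy1-MC-EVs relative to MH-EVs by 1.00 (limma adjusted p = 0.00392) and in MSC-EVs relative to MH-EVs by 1.05 (adjusted p = 0.00211), and it kept its sign under each scaling tried, though neither call held when arrays were scaled to the median or 75th percentile of common miRNAs (adjusted p 0.11 to 0.954). Against SH-EVs the Thy1-MC difference was -0.61 (adjusted p = 0.0726), and it passed without MH replicate 1 or 3 (adjusted p = 0.0324 and 0.0368). It also fell in MSC-EVs relative to SH-EVs by 0.66 (adjusted p = 0.0322), a call lost in 4 of the fits that left out an array (without MSC replicates 1 or 2 or SH replicates 2 or 3), with an adjusted p of up to 0.129. That call was also lost with median scaling (-0.26, adjusted p = 0.589), the 75th percentile (-0.32, adjusted p = 0.658), cyclic loess (-0.46, adjusted p = 0.238) and spike-in scaling (adjusted p = 0.0757), with array weights and with the methods' t-test, and it held on the authors' normalized intensity (-2.12, adjusted p = 0.0054).

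miR-24-2-5p, the a cluster's passenger arm of miR-24, was detected on 10 arrays and passed the filter through SH-EVs and MH-EVs. It measured 6.56, 6.63 and 6.61 in Thy1-MC-EVs, 6.87, 7.50 and 7.40 in MSC-EVs, 6.78, 7.04 and 6.996 in SH-EVs and 6.36, 6.34 and 6.39 in MH-EVs. The Thy1-MC range lay below the MSC and SH ranges. It fell in Thy1-MC-EVs relative to MSC-EVs by 0.66 (limma adjusted p = 0.0110; 0.0622 to 0.72 under the 5 other scalings), and it rose in MSC-EVs relative to MH-EVs by 0.89 ± 0.16 (adjusted p = 0.00107) and in SH-EVs relative to MH-EVs by 0.57 ± 0.16 (adjusted p = 0.0159), with both MH differences negative after spike-in scaling (-1.66 and -1.46). On the authors' normalized intensity neither call held (0.11 with an adjusted p of 0.882, and 0.31 with an adjusted p of 0.632). Between MSC-EVs and SH-EVs it differed by 0.32 (adjusted p = 0.15), which passed without MSC replicate 1 (0.54, adjusted p = 0.00801). That difference was -0.20 both after spike-in scaling (limma adjusted p = 0.667) and on the authors' normalized intensity (adjusted p = 0.797). The call for SH-EVs against MH-EVs was lost without SH replicate 2 (adjusted p = 0.0617) or SH replicate 3 (adjusted p = 0.0610). miR-24-1-5p, its b cluster counterpart, was detected on 8 arrays, passed the filter only through SH-EVs and passed no test under quantile normalization of all 12 arrays with equal weights and normexp correction, with a difference of -0.16 (95% interval -0.68 to 0.36) between Thy1-MC-EVs and MSC-EVs. Other settings gave it calls against MH-EVs. It entered the tests only through SH-EVs, the source with its highest mean under quantile normalization. Its calls for SH-EVs are therefore not independent of the filter and are not read as support. With median scaling Thy1-MC-, MSC- and SH-EVs exceeded MH-EVs by 1.24, 1.87 and 1.35 (limma adjusted p = 0.00363, 4.43e-05 and 0.00151), and all 3 comparisons also passed with the 75th percentile, plain subtraction or array weights, whereas after spike-in scaling the differences were -1.64, -1.70 and -1.40. Cyclic loess called MSC-EVs and SH-EVs against MH-EVs, the fit of only the 6 arrays compared called SH-EVs against MH-EVs (adjusted p = 0.0424), and so did the fit without MSC replicate 2 (adjusted p = 0.0137), while that without MSC replicate 3 called MSC-EVs against MH-EVs (adjusted p = 0.0444). The remaining passengers did not pass the filter. miR-23b-5p and miR-27b-5p were each detected on 2 arrays, both of MH-EVs, and miR-27a-5p on 1 Thy1-MC array and 1 MH array.

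Across the 8 tested members, Thy1-MC-EVs against SH-EVs gave 0 higher and 1 lower, where 6.98% and 7.49% of the 387 tested miRNAs were called higher and lower. Thy1-MC-EVs against MH-EVs gave 4 higher and 1 lower (14.5% and 15.5% of all tested). Thy1-MC-EVs against MSC-EVs gave 0 higher and 2 lower (12.9% and 10.6%). MSC-EVs against SH-EVs gave 1 higher and 1 lower (12.1% and 15.5%), MSC-EVs against MH-EVs 6 higher and 1 lower (14.7% and 20.7%), and SH-EVs against MH-EVs 5 higher and 0 lower (15.0% and 17.6%). At an unadjusted limma p under 0.05 the members numbered 4, 6, 3, 2, 8 and 7, in the order in which the comparisons are given here. The share of all tested miRNAs at that threshold was not counted, so those numbers are not read as a trait of the members. The median log2 difference of the members was 0.70 for Thy1-MC-EVs, 1.49 for MSC-EVs and 0.89 for SH-EVs, each against MH-EVs, where the medians of all tested miRNAs were -0.05, -0.13 and -0.06. These counts against MH-EVs hold for quantile normalization; after spike-in scaling the 5 guides were negative in each of the 3 comparisons.

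Under quantile normalization the largest differences of members between the liver sources were those of the miR-23 and miR-24 guides in SH-EVs against MH-EVs. miR-23b-3p was 2.88 ± 0.46 higher in SH-EVs (7.37-fold; limma adjusted p = 0.000771), miR-23a-3p 2.75 ± 0.43 higher (6.73-fold; adjusted p = 0.000702) and miR-24-3p 2.47 ± 0.34 higher (5.54-fold; adjusted p = 0.0003), while spike-in scaling gave -0.22, -0.29 and -0.50. On the authors' normalized intensity the differences were 0.93, 0.86 and 0.66 and no call held (adjusted p = 0.165, 0.192 and 0.289), and the largest member difference between liver sources was then that of miR-23a-5p in Thy1-MC-EVs against MH-EVs, at -3.68. miR-27a-3p differed by 1.07 ± 0.26 (adjusted p = 0.0082; 0.106 with median scaling) and miR-27b-3p by 0.70 ± 0.25 (adjusted p = 0.0522), against -0.88 and -1.42 on the authors' normalized intensity. Against MH-EVs, MSC-EVs were higher by 2.27 ± 0.43 for miR-23a-3p, 2.05 ± 0.46 for miR-23b-3p, 2.23 ± 0.34 for miR-24-3p and 2.06 ± 0.26 for miR-27a-3p (limma adjusted p between 0.000109 and 0.0051), with -1.71, -1.78, -1.83 and -1.83 after spike-in scaling and -0.28, -0.35, -0.41 and -0.42 on the authors' normalized intensity. For miR-27a-3p, Thy1-MC-EVs exceeded MH-EVs as well (0.76 ± 0.26, limma adjusted p = 0.0429; -2.26 after spike-in scaling), a call that 7 of the fits leaving out an array did not keep, with an adjusted p of up to 0.169 (without Thy1-MC replicate 2). With the replicate number as a block its adjusted p was 0.0548.

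**Figure D2:**
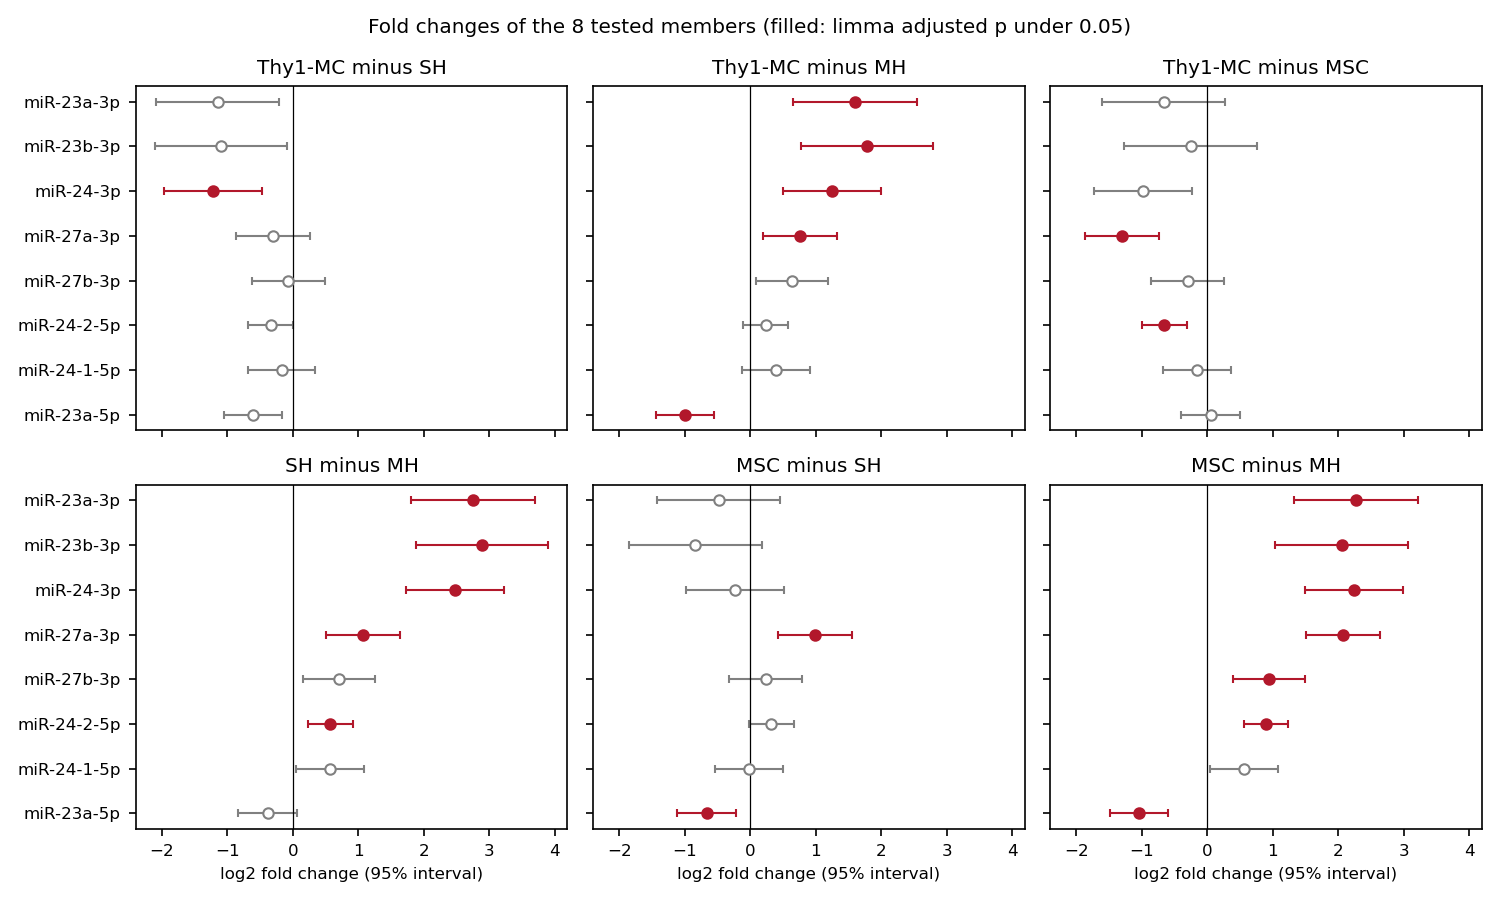
Log2 fold changes (horizontal axis, with 95% intervals) of the 8 tested members in the 6 comparisons under quantile normalization; filled points have a limma adjusted p under 0.05. Guides lie right of 0 in all 3 comparisons with MH-EVs, a side they leave under spike-in scaling, and in Thy1-MC against SH the miR-23 and miR-24 guides lie left of -1 while the miR-27 guides lie near 0. Only miR-24-3p was called there. With median or spike-in scaling or on the authors' values the miR-23 and miR-24 guides lay between -0.97 and -0.48 in that comparison.

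Because the MH arrays differed in spike-in signal and in the number of detected miRNAs, the comparisons with MH-EVs were set against the median of all tested miRNAs under 6 scalings. That median in Thy1-MC-EVs against MH-EVs was -0.05 under quantile normalization, 0.63 with arrays scaled to the median of common miRNAs, -1.40 on the authors' normalized intensity and -2.24 after spike-in scaling. Relative to it, miR-23a-3p was 1.35 to 1.70 higher in Thy1-MC-EVs, miR-23b-3p 1.38 to 1.84 and miR-24-3p 0.77 to 1.30. For MSC-EVs these ranges were 0.93 to 2.40, 0.86 to 2.32 and 0.81 to 2.36, and for SH-EVs 1.98 to 2.81, 2.05 to 2.94 and 1.77 to 2.53. Scaling by the median or a percentile of common miRNAs or by the spike-in shifts a whole array by a constant. That constant cancels against the median miRNA, so these scalings gave nearly the same relative value (1.35 for miR-23a-3p in Thy1-MC-EVs). They are therefore not separate checks. With that limit, the miR-23 and miR-24 guides stayed above the median miRNA under all 6 scalings. miR-27b-3p did not, at -0.26 to 0.69 in Thy1-MC-EVs, -0.52 to 1.06 in MSC-EVs and -0.21 to 0.76 in SH-EVs, and miR-27a-3p ranged over -0.02 to 0.82 in Thy1-MC-EVs, 0.81 to 2.22 in MSC-EVs and 0.28 to 1.13 in SH-EVs. miR-23a-5p stayed below the median in all 3 comparisons, at -2.29 to -0.94, -2.37 to -0.87 and -0.75 to -0.33.

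**Figure D3:**
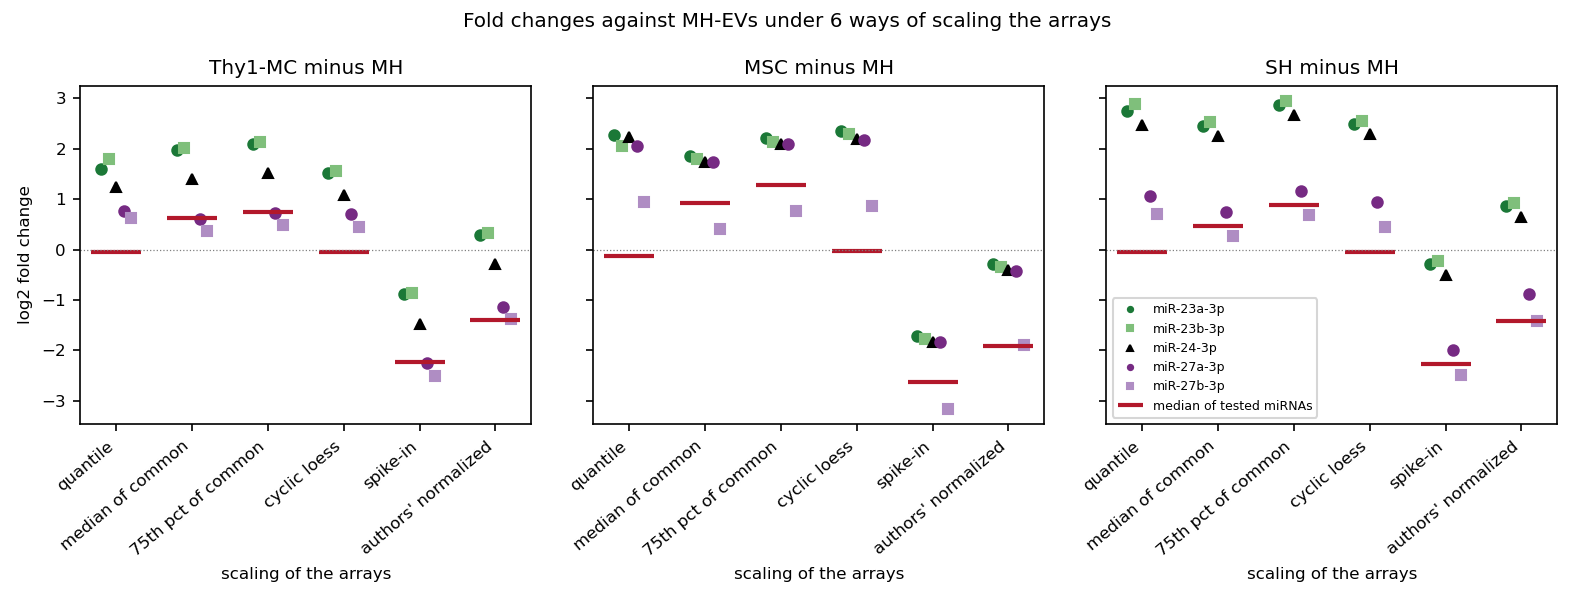
Log2 fold changes (vertical axis) of the 5 guides in Thy1-MC-, MSC- and SH-EVs against MH-EVs under 6 ways of scaling the arrays; the red bar is the median of the 387 tested miRNAs. The guides and the median move down together under spike-in scaling, where all 5 are below 0, and the miR-23 and miR-24 guides stay above the red bar throughout. Among the median, percentile and spike-in scalings the distance of a guide from the bar is nearly fixed by arithmetic.

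The a and b clusters were compared through the log2 difference of paralogous probes within an array, in which a probe's own brightness cancels between groups; the value itself still holds it and is not read. Of the 3 pairs tested, miR-27 differed between the EV sources. Under quantile normalization miR-27b-3p minus miR-27a-3p was 0.13, 0.15 and 0.53 in Thy1-MC-EVs, -0.94, -0.70 and -0.53 in MSC-EVs, -0.46, 0.34 and 0.21 in SH-EVs and 0.39, 0.33 and 0.48 in MH-EVs. The 3 MSC arrays lay below all others, and SH replicate 1 was the next lowest. The group means spanned 1.13, and the exact permutation test over the 4 groups gave p = 0.00812 (adjusted p = 0.0244 over the 3 pairs; two-sided). Without MSC replicate 1, MSC replicate 3 or MH replicate 3 the adjusted p was 0.0754, 0.0717 and 0.0536. In the exact permutation test of 3 arrays against 3 the smallest possible p is 0.10, which MSC-EVs reached against each of the other sources.

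The authors' normalized intensity removes the array's scale from such a difference altogether. On it miR-27b-3p minus miR-27a-3p averaged 0.32 ± 0.26 in Thy1-MC-EVs, -0.90 ± 0.11 in MSC-EVs, 0.03 ± 0.43 in SH-EVs and 0.57 ± 0.18 in MH-EVs (SD, n = 3 each), and the groups differed with an adjusted p of 0.00974 in the exact permutation test. Relative to miR-27b-3p, miR-27a-3p was thus highest in MSC-EVs on either scale.

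For the other pairs the test was not passed. miR-23b-3p minus miR-23a-3p averaged 0.24 in Thy1-MC-EVs, -0.18 in MSC-EVs, 0.18 in SH-EVs and 0.05 in MH-EVs (exact permutation p = 0.146, adjusted p = 0.146). That span of 0.41 shrank to 0.14 on the authors' normalized intensity, where the 12 arrays lay between -0.09 and 0.17. Quantile normalization works on ranks and gives every array the same steps between its brightest probes. Without SH replicate 3 this pair had an adjusted p of 0.00584. miR-24-1-5p minus miR-24-2-5p averaged -0.03 in Thy1-MC-EVs, -0.53 in MSC-EVs, -0.20 in SH-EVs and -0.19 in MH-EVs (exact permutation p = 0.0889, adjusted p = 0.133), and the adjusted p was 0.0144 without MSC replicate 2. On the authors' normalized intensity both probes of this pair were detected on 8 of the 12 arrays, 1 of them an MSC array. Of these probes, miR-24-1-5p had passed the filter only through SH-EVs.

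A further 3 within-array differences were chosen after the members' values had been seen and are given without a test. On the authors' normalized intensity, miR-27b-3p minus miR-23b-3p, guides of the same cluster, ranged over -4.01 to -3.11 in Thy1-MC-EVs, -3.51 to -3.08 in MSC-EVs, -4.58 to -3.80 in SH-EVs and -2.76 to -1.18 in MH-EVs. The MH range did not overlap another, but under quantile normalization its low end of -2.748 lay just below the upper ends of the MSC and Thy1-MC ranges, at -2.729 and -2.747. miR-27a-3p minus miR-23a-3p ranged over -4.58 to -3.24 in Thy1-MC-EVs, -2.59 to -2.34 in MSC-EVs, -4.72 to -3.25 in SH-EVs and -3.43 to -1.67 in MH-EVs, where the MSC range lay above those of Thy1-MC-EVs and SH-EVs. Under quantile normalization the MSC range, -2.93 to -2.15, overlapped that of Thy1-MC-EVs, -3.77 to -2.72. miR-23a-5p minus miR-23a-3p, the arms of 1 hairpin, ranged over -8.07 to -7.51 in Thy1-MC-EVs, -9.47 to -7.13 in MSC-EVs (2 arrays), -7.40 to -6.26 in SH-EVs and -5.83 to -2.39 in MH-EVs. All 3 MH arrays lay above the rest, and they did so under quantile normalization too, at -4.47 to -2.22 against at most -5.49.

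**Figure D4:**
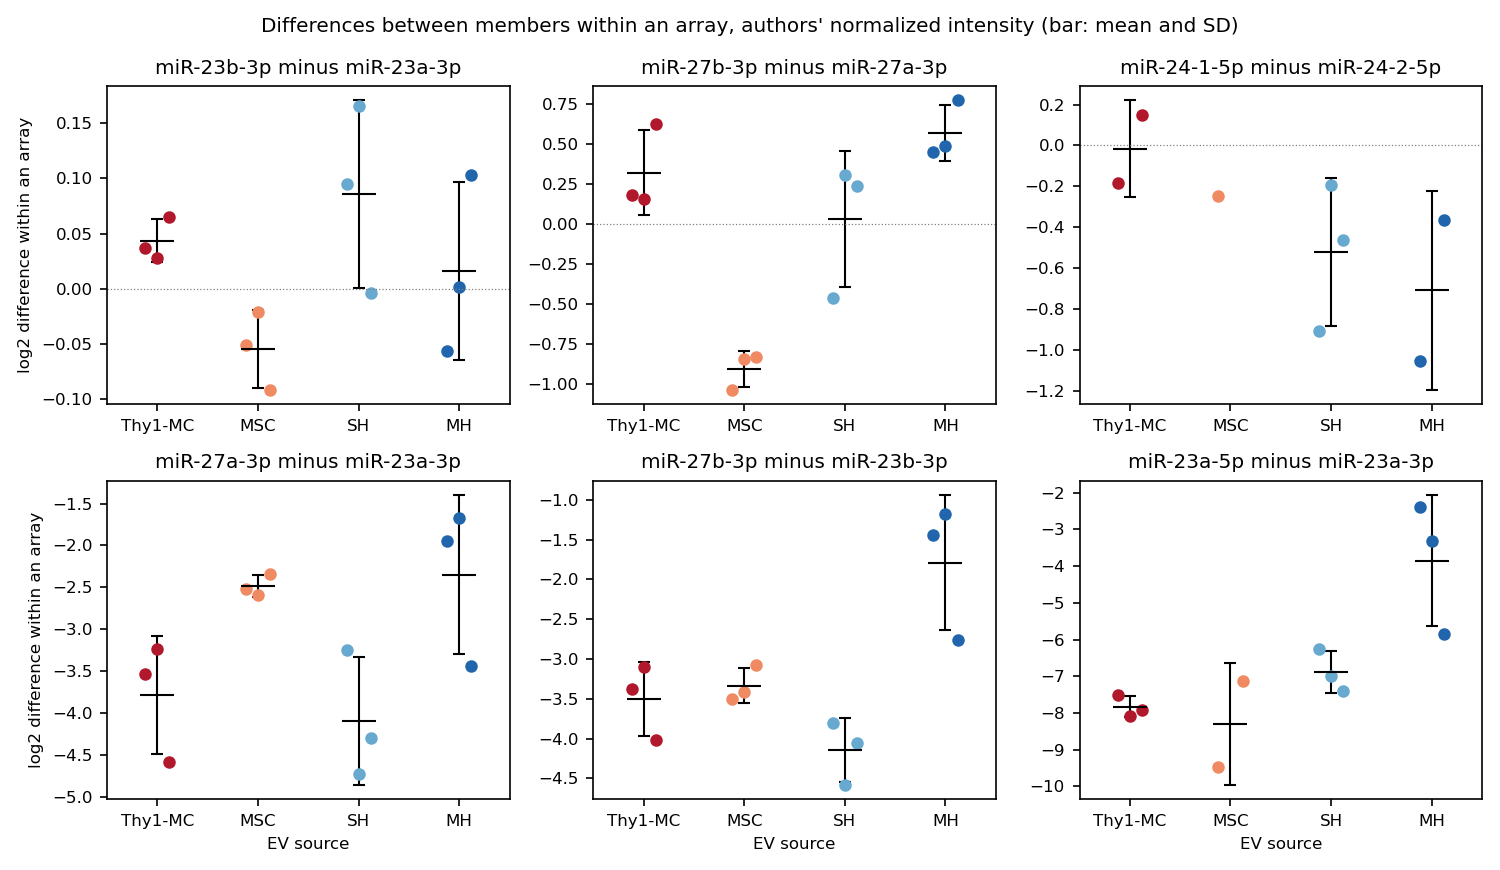
Log2 differences between members within an array (vertical axis) on the authors' normalized intensity, by EV source; points are arrays with both probes detected, and the line and bars are mean and SD. Only the upper row was tested; miR-27b-3p minus miR-27a-3p lies between -1.03 and -0.83 on the MSC arrays, below all other arrays.

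Over the 12 arrays, miR-23a-3p correlated with miR-23b-3p at a Pearson r of 0.98 and with miR-24-3p at 0.96, whereas miR-27a-3p correlated with miR-27b-3p at 0.84 and with miR-23a-3p at 0.72. These are descriptions over arrays that share 4 sources and 1 normalization. Outside the family, the patterns most like the miR-23 guides were those of miR-652-3p, miR-17-1-3p and miR-99b-5p (r of 0.89 to 0.95). miR-24-3p was most like miR-652-3p, miR-34a-5p and miR-324-3p (0.88 to 0.93), and miR-27b-3p most like miR-181a-5p, miR-652-3p and miR-34a-5p (0.82 to 0.88). miR-27a-3p stood with miR-347, miR-375-5p and miR-29b-3p (0.92 to 0.94), which like it had their highest mean level in MSC-EVs under quantile normalization.

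Among the neighbours of the clusters in a fixed list (miR-3074 and the arms of miR-181c and miR-181d), 2 of 5 passed the filter, miR-181c-3p and miR-181d-3p, and none was called in any of the 6 comparisons under quantile normalization. Other scalings gave calls only against MH-EVs, and their direction turned with the scaling. In MSC-EVs 2 were higher with median or 75th percentile scaling. Thy1-MC-EVs had 1 higher with median scaling and SH-EVs 1 higher with the 75th percentile. After spike-in scaling 2 were lower in each of the 3 sources, and on the authors' values 1 was lower in MSC-EVs. Of 12 tested miRNAs linked to vessel formation, 1 rose and 3 fell in Thy1-MC-EVs against SH-EVs, where 6.98% and 7.49% of all tested miRNAs did. The counts were 2 higher and 3 lower for Thy1-MC against MH (14.5% and 15.5% of all tested), 0 and 4 for Thy1-MC against MSC (12.9% and 10.6%), 4 and 1 for MSC against SH (12.1% and 15.5%), 4 and 3 for MSC against MH (14.7% and 20.7%) and 1 and 4 for SH against MH (15.0% and 17.6%). After spike-in scaling none was called in Thy1-MC-EVs against SH-EVs, where 5 of the 387 tested miRNAs were, and 11 were lower in each comparison with MH-EVs. For all tested miRNAs the median log2 difference against MH-EVs was then -2.24 (Thy1-MC), -2.64 (MSC) and -2.27 (SH). Those 11 are not read as a trait of the list. In Thy1-MC-EVs against SH-EVs the log2 difference was -1.56 for miR-130a-3p, -1.63 for miR-19b-3p and 1.18 for miR-126a-3p, an endothelial miRNA (limma adjusted p = 0.00415, 0.000254 and 0.00249). Each kept its sign under the 5 other scalings, and the call held under 2, 4 and 3 of them. Neither arm of miR-126a was detected in SH-EVs. Of 8 tested miRNAs linked to lipid metabolism, the test called 1 higher and 1 lower for Thy1-MC-EVs against SH-EVs, 2 and 2 in Thy1-MC-EVs against MH-EVs, 0 and 2 in Thy1-MC-EVs against MSC-EVs, 2 and 3 in MSC-EVs against SH-EVs, 3 and 1 in MSC-EVs against MH-EVs and 4 and 2 in SH-EVs against MH-EVs, to be read against the same shares of all tested miRNAs. After spike-in scaling none was higher in any comparison, and against MH-EVs the median of all tested miRNAs was then negative too. In SH-EVs against MH-EVs miR-122-5p, the main hepatocyte miRNA, had a difference of -5.48 (limma adjusted p = 2.86e-06), which was called with the same sign under each scaling, whereas miR-107-3p, at 2.14 (adjusted p = 0.00483) under quantile normalization, was at -1.20 after spike-in scaling and -0.0496 on the authors' normalized intensity.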

How the data were processed

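Rat EV miRNA was measured on 12 arrays. The authors deposited 3 intensity columns per probe, which are raw, background-subtracted and normalized, the last with the median of an array's detected probes at 25. No depth applies, and the 3 arrays per group limit the precision. For scanner and image software, the sources used here give no name. From the deposited raw intensity the blank background was removed by normexp (offset 50), and values were taken to log2 and quantile-normalized. A probe was tested where some group had it detected on all 3 arrays, which left 387, detection meaning a raw intensity above the blank mean (5% trimmed at either end) plus 2 SD; 2 flagged values were left out. limma 3.58.1 (R 4.3.3; lmFit, eBayes) was fitted to all 12 arrays, with Benjamini-Hochberg adjustment and a threshold of 0.05. Paralogous pairs were tested by exact permutation (Python 3.11.15). The fit was tested on simulated data. Fits of the authors' normalized intensity set undetected probes to the array's lowest value; within-array differences left them out.

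All members were named, with the 3 miRNAs of highest Pearson r for each guide and up to 4 examples per list. The examples are a selection and do not follow the ranking by adjusted p throughout. In SH-EVs against MH-EVs miR-130a-3p, miR-378a-3p and miR-103-3p of the lipid list had a smaller limma adjusted p than the named miR-107-3p (0.00483). Members and lists were chosen with earlier results of these data known. Alternatives covered background, scaling, filter, model and left-out arrays. The deposited table of the whole series matched the per-array values to within 0.05. Samples were grouped by their labels. Same-numbered arrays deviated together in all 3 pairs only for Thy1-MC and MH (r of 0.20 to 0.32), so the number was tried as a block and is not in the model.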

Additional observations from a re-analysis of the deposited data

Results flagged for a closer look

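The difference miR-27b-3p minus miR-27a-3p within an array varied between EV sources by a test of that difference itself. The group means spanned 1.13 on the log2 scale, from MSC-EVs at -0.73 as the lowest to MH-EVs at 0.40 as the highest (exact permutation adjusted p = 0.0244), and the 3 MSC arrays were below the other 9.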

How the results depend on the processing

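The comparisons with MH-EVs depended on scaling. The spike-in signal of the MH arrays was lower, and its part in the results was not tested. After spike-in scaling the log2 differences in Thy1-MC-EVs against MH-EVs were -0.89 (miR-23a-3p), -0.86 (miR-23b-3p), -1.47 (miR-24-3p), -2.50 (miR-27b-3p), -2.26 (miR-27a-3p), -1.64 (miR-24-1-5p) and -1.86 (miR-24-2-5p). In the same order they were -1.71, -1.78, -1.83, -3.16, -1.83, -1.70 and -1.66 in MSC-EVs against MH-EVs and -0.29, -0.22, -0.50, -2.49, -1.99, -1.40 and -1.46 in SH-EVs against MH-EVs. The authors' normalized intensity gave -0.29 (miR-24-3p), -1.38 (miR-27b-3p), -1.13 (miR-27a-3p) and -0.81 (miR-24-2-5p) in Thy1-MC-EVs, -0.28 (miR-23a-3p), -0.35 (miR-23b-3p), -0.41 (miR-24-3p), -1.90 (miR-27b-3p) and -0.42 (miR-27a-3p) in MSC-EVs, and -1.42 (miR-27b-3p) and -0.88 (miR-27a-3p) in SH-EVs, each against MH-EVs. All these were positive under quantile normalization, as was miR-107-3p in SH-EVs against MH-EVs, which was -1.20 after spike-in scaling and -0.0496 on the authors' values. The scalings of the lists were added after the data were seen. The cause of other changes was not tested.

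Counts of called members moved as follows. No share of all tested miRNAs is given beside them, so they show only how calls moved. Thy1-MC against SH (1) became 0 with plain subtraction, median, 75th percentile, cyclic loess or spike-in scaling, the authors' values, no filter and the methods' t-test after Benjamini-Hochberg, 4 with only the 6 arrays compared or without the MH arrays, and 5 with array weights. Thy1-MC against MH (5) became 1 with cyclic loess and 2 with the authors' values or the t-test. Thy1-MC against MSC (2) became 1 with median, 75th percentile or cyclic loess scaling and 0 with spike-in scaling, the authors' values or the t-test. MSC against SH (2) became 1 with plain subtraction, cyclic loess, the authors' values or only miRNAs detected on all arrays, and 0 with median, 75th percentile or spike-in scaling or the t-test. MSC against MH (7) became 2 with the authors' values and 3 with the t-test. SH against MH (5) became 2 with the authors' values and 8 with array weights. The counts do not show sign. After spike-in scaling every member called against MH-EVs was lower than in MH-EVs. On the authors' values the calls against MH-EVs were miR-27b-3p and miR-23a-5p, both lower in each comparison. Leaving out each array gave 0 to 4, 1 to 6, 2 to 3, 0 to 2, 6 to 8 and 4 to 7 in that order; Thy1-MC against SH rose to 4 without MH replicate 3, and Thy1-MC against MH dropped to 1 without MH replicate 2.

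With the replicate number as a block the counts were 1, 4, 3, 2, 7 and 6. The block ended the call of miR-27a-3p in Thy1-MC against MH (adjusted p = 0.0548) and brought in miR-24-3p in Thy1-MC against MSC and miR-27b-3p in SH against MH; it changed no other call. The span of group means was 1.05 to 1.22 for miR-27b-3p minus miR-27a-3p when each array was left out, 0.37 to 0.45 for miR-23b-3p minus miR-23a-3p and 0.25 to 0.68 for miR-24-1-5p minus miR-24-2-5p. Of the alternatives for single members already called, 457 kept their call and sign, 91 lost the call and 23 turned in sign.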
